A study of Homo sapiens with 6 samples.

Results

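The AP-1 transcription factor genes described here are 10 of the 25420 genes listed in the deposited tables and were chosen by name: the JUN genes JUN, JUNB and JUND, the FOS genes FOS, FOSB, FOSL1 and FOSL2, and the related basic leucine zipper genes BATF3, MAFF and MAFG. MOLM-13, an established human cell line of secondary acute myeloid leukaemia with an MLL-AF9 fusion and internal tandem duplications of FLT3, received either 10 µM C646 or the solvent DMSO for 2 h, with 4-thiouridine (4sU) added at 100 µM for the last 1 h, in 3 replicates per group. C646 competes with acetyl-CoA for the catalytic domain of the histone acetyltransferases CBP and p300. All 6 libraries came from the same cell line and all were labelled with 4sU, and whether the replicates were separate cultures is not stated in the sources used here, so p-values measure the spread between these libraries. In SLAM-seq, RNA made during the labelling carries 4sU, and alkylation of the 4sU turns these T bases into C in the reads. A read with such a conversion (a T > C read) is taken here as a read of a newly synthesized transcript. Errors and polymorphisms can also give such reads. All reads of a gene measure its total mRNA.

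AP-1 is a dimer of basic leucine zipper proteins. JUN proteins pair with themselves, with FOS proteins or with BATF proteins, whereas FOS proteins need a partner. The small MAF proteins MAFF and MAFG lack an activation domain and pair with themselves, with CNC family proteins such as NFE2 and NFE2L2, and with FOS. Many of these genes are immediate early genes, which are transcribed within minutes of a stimulus and make short-lived mRNAs, and in myeloid cells JUN takes part in monocytic differentiation.

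The reads on 3′ UTRs numbered 7252597 to 9404748 per DMSO library and 7536467 to 10225448 per C646 library. T > C reads numbered 635616 to 833410 and 477824 to 686139, or 8.79% ± 0.0637 (SD, n = 3) of the reads with DMSO and 6.48% ± 0.203 (SD, n = 3) with C646. Of 10 marker genes of myelomonocytic cells, 10 were at 10 CPM (reads of the gene per 1000000 reads) or more in every library. Lower in every C646 library were SPI1 (169 to 243 CPM with DMSO and 69.0 to 112 with C646), CD33 (168 to 187 and 102 to 134) and CSF1R (26.5 to 29.5 and 16.7 to 23.1). FLT3 was higher (101 to 135 and 172 to 206 CPM), and the groups overlapped for the rest of this list. Of 10 genes listed as markers of other cells, 1 (PECAM1, which is not exclusive to them) reached that level and 6 stayed below 1 CPM. The defining markers ALB, CD3E and HBB were at 0. The summed level of this second list was 147 to 157 CPM with DMSO and 96.6 to 134 CPM with C646, most of it PECAM1 (145 to 155 and 87.5 to 125 CPM). COL1A1 was higher with C646 (0.819 to 2.34 and 5.71 to 6.65 CPM), as was EPCAM (0 to 0.532 and 0.685 to 1.86 CPM). The list's part in the results below was not tested. Within a group, the chi-square per degree of freedom between libraries was 7.87 to 27.7, well above the 1 of counting noise alone, so no library was a copy of another.

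The reads of each gene were counted on its annotated 3′ UTR, and these stretches also hold the AU-rich elements known for mRNA decay. On GRCh38, the entries with reads were at chr1:58780791-58782074 for JUN, chr19:12792816-12793311 for JUNB, chr19:18279694-18280440 for JUND, chr14:75281425-75282234 for FOS, chr19:45473013-45475179 for FOSB, chr2:28412449-28414649 for FOSL2, chr1:212686417-212686790 for BATF3, chr22:38214879-38216510 for MAFF and chr17:81918269-81922604 for MAFG. FOSL1 had 3 entries, of which chr11:65892136-65893296 took all but 1 read. None overlapped the entry of another gene, and each lay on a UTR of its own gene in GENCODE, with a SIRT7 exon on the same strand also touching that of MAFG, so that reads of MAFG and SIRT7 cannot be fully told apart there. At most 0.439% of a gene's reads (FOSL1) were multimapped. The pentamer ATTTA was found in the 3′ UTR of 10 of the 10 genes, compared to 74.4% of 7722 tested genes and 81.9% of those in the same range of lengths. It occurred 5 times in the 810 bases of FOS and 1 time in the 747 bases of JUND. The longer element TTATTTATT, which overlaps ATTTA, was found on the transcript strand of FOS and MAFF, whereas 8.29% of the tested genes hold it (7.90% in the same range of lengths). The windows are shown because only these genes of the 10 hold the element, with the element in capitals and in the 5′ to 3′ direction of the plus strand, chr14:75282061-75282087 for FOS and chr22:38215915-38215941 and chr22:38216404-38216430 for MAFF.
FOS: gtttttaatTTATTTATTaagatggat
MAFF, the window nearer the stop codon: ccccactgtTTATTTATTgcacggatc
MAFF, the window nearer the 3′ end: tcctagaatTTATTTATTtcctgactt
A match of letters is a description and shows neither binding nor decay.

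AP-1 and ATF/CREB dimers bind short palindromes, so the promoters were searched on both strands for the TPA response element TGANTCA, the cAMP response element TGACGTCA, the variant TGACATCA, the heat shock element (GAA, TTC and GAA with NN between them) and the CArG box of SRF. RefSeq (GRCh38.p14) gave promoter windows of 250 bases before to 50 bases after the transcription start for 8 of the 10 genes, and FOSL1 and BATF3 were not in that table. The 4 matches are shown because they set the JUN promoter beside those of genes that went the other way, with the motif in capitals and on the strand of the gene.
JUN, TGACATCA beginning 67 bases before the start (chr1:58784099-58784122, minus strand): ccttggggTGACATCAtgggctat
JUND, cAMP response element 200 bases before the start (chr19:18281807-18281830, minus strand): cgcccccaTGACGTCAacccacaa
MAFF, cAMP response element 54 bases before the start (chr22:38201932-38201955, plus strand): cgggtcggTGACGTCAccgcatga
FOSL2, TPA response element 4 bases after the start (chr2:28392854-28392876, plus strand): cattgtagTGACTCAtctcgggc
Of 27305 promoters of this length, 2.71% hold TGACATCA, 1.98% the cAMP response element and 7.76% the TPA response element. The heat shock element, at 0.487% of promoters, and the CArG box, at 1.29%, had 0 matches among the 8 genes, which says only that these letters are not in these windows.

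Newly synthesized JUN rose, while 5 of the 8 AP-1 genes that could be tested fell: JUNB, JUND, FOSL1, FOSL2 and MAFF. FOS and MAFG did not pass the test, and FOSB and BATF3 had too few T > C reads to be tested. The test was edgeR's quasi-likelihood test over all genes, and genes were called where the adjusted p was 0.01 or less and the log2 fold change 1 or more in size. T > C reads were scaled by the TMM-scaled total reads of their library, so that a CPM of T > C reads is relative to reads of any kind. On this scale, T > C reads fell broadly in these cells. Whether uptake or incorporation of the label differed between the groups was not tested, so lower T > C reads need not mean less synthesis. Of 7722 genes tested, 33.0% were called lower and 2.97% higher (2548 and 229 genes, compared to 613 and 699 when T > C reads were scaled by their own TMM, under which JUNB, FOSL2 and MAFF kept their calls), and the median log2 fold change was −0.83, with quartiles of −1.46 and −0.25. The median of the 8 AP-1 genes tested was −1.68, and 5 of the 8 lay below the median of all genes. JUN passed the filter on low counts only through the C646 libraries, so it could hardly have been tested without a difference. MAFF passed only through the DMSO libraries, and its C646 libraries were below the cut of the filter.

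**Figure D1:**
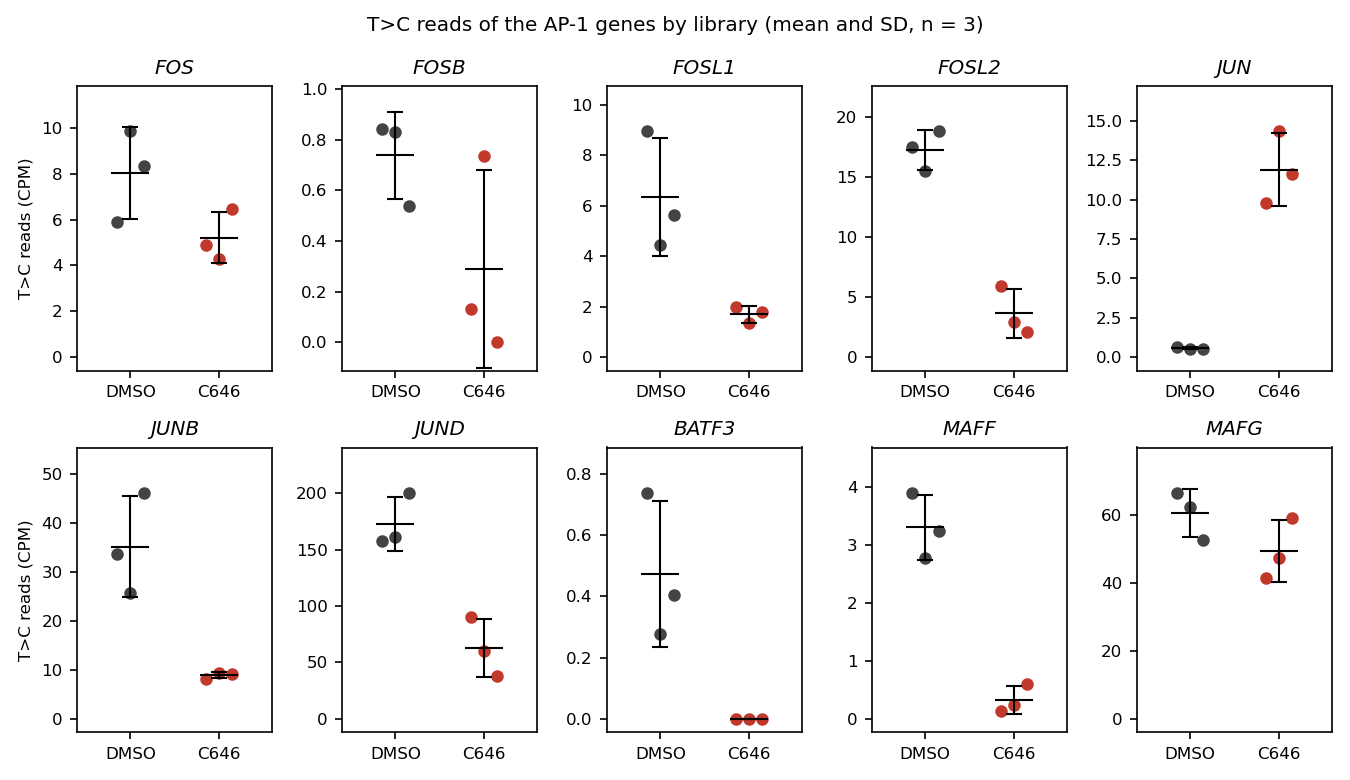
T > C reads of the 10 AP-1 genes in each library, in CPM relative to reads of any kind (y axis, a scale of its own for each gene), for DMSO (grey) and C646 (red). Points are libraries, and the long bar and whiskers are the mean and SD of 3. JUN rises from 0.575 to 11.9 CPM on average, the C646 points of JUNB, JUND, FOSL1, FOSL2 and MAFF all lie below the DMSO points, and those of FOS, FOSB and MAFG overlap them.

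JUN encodes the most strongly activating JUN protein and is itself an AP-1 target. In the order of replicates 1, 2 and 3, as for all genes below, it had 6, 4 and 4 T > C reads with DMSO and 74, 117 and 117 with C646. Every C646 library was thus above every DMSO library, as in 6.46% of the tested genes, and the low DMSO counts, all above the floor of 3 reads, set the precision of the fold. New JUN rose from 0.575 ± 0.0502 CPM (SD, n = 3) to 11.9 ± 2.29 CPM (SD, n = 3), a 20.1-fold increase (log2 fold change 4.33 ± 0.38 SE, adjusted p = 1.65e-10, edgeR). Since JUN was among the tested genes only through its C646 libraries, its rank among them is not given. Leaving out each library in turn gave log2 fold changes of 4.18 to 4.46.

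Total JUN mRNA went the same way. All reads numbered 10, 11 and 6 with DMSO and 200, 221 and 242 with C646, which amounts to 1.13 ± 0.364 and 25.8 ± 1.62 CPM (SD, n = 3) and a log2 fold change of 4.51 ± 0.27 SE (adjusted p = 4.87e-08, edgeR). Reads of JUN without a conversion rose along with the T > C reads, from 4, 7 and 2 to 126, 104 and 125. The T > C share of JUN reads was 54.3% ± 15.9 with DMSO and 46.1% ± 8.21 with C646 (SD, n = 3). The groups overlapped (two-sided exact permutation test, p = 0.5), and a share with DMSO rests on 6 to 11 reads. Per 100 covered T bases, JUN had 5.09 ± 3.36 conversions with DMSO and 2.78 ± 0.281 with C646 (SD, n = 3, exact permutation test, p = 0.4), a ratio of 0.545 in place of 0.848.

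JUNB, which pairs with the same partners as JUN and can counter its activity, had 319, 185 and 343 T > C reads with DMSO and 62, 76 and 93 with C646. All C646 libraries were below all DMSO libraries, as in 55.8% of the tested genes, and the C646 libraries were close to each other. New JUNB fell from 35.2 ± 10.4 to 8.91 ± 0.619 CPM (SD, n = 3), 3.93-fold (log2 fold change −1.98 ± 0.22 SE, adjusted p = 1.26e-08, edgeR). Scaled on the T > C reads, it was at −1.17 to −1.14 and kept its call. Total JUNB, at 421, 254 and 458 reads with DMSO and 144, 169 and 223 with C646, fell as well (log2 fold change −1.19 ± 0.20 SE, adjusted p = 0.000727, edgeR). Without DMSO replicate 3, the highest library, this last value was −0.94 and no longer met the fold cutoff.

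JUND, the JUN gene with steady expression in many cell types, was the most abundant member, with 1494, 1160 and 1489 T > C reads with DMSO and 680, 492 and 384 with C646. Each C646 library was below each DMSO library, as in 55.8% of the tested genes. New JUND fell from 173 ± 23.9 to 62.8 ± 26.0 CPM (SD, n = 3), 2.76-fold (log2 fold change −1.47 ± 0.19 SE, adjusted p = 3.43e-07, edgeR), which places it at the percentile 24.7 of all tested genes. Scaled on the T > C reads, it was at −0.64 to −0.62 and lost its call. Total JUND numbered 10593, 6611 and 10319 reads with DMSO and 8025, 7292 and 4702 with C646. These groups overlapped when scaled, with C646 replicate 3 the lowest at 466 CPM, and total JUND did not pass the test (log2 fold change −0.50 ± 0.23 SE, adjusted p = 0.118, edgeR).

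FOS, the founding immediate early gene of the family, had 56, 71 and 62 T > C reads with DMSO and 37, 35 and 65 with C646. The groups overlapped, at 8.03 ± 1.99 and 5.21 ± 1.11 CPM (SD, n = 3). New FOS did not pass the test, with a log2 fold change of −0.61 ± 0.29 SE (adjusted p = 0.0789, edgeR), which is above that of 60.5% of the tested genes. All reads of FOS numbered 64, 87 and 69 with DMSO and 46, 36 and 81 with C646, with a log2 fold change of −0.58 ± 0.30 SE (adjusted p = 0.155, edgeR). The direction for new FOS was reversed when libraries were scaled on the T > C reads themselves, to between 0.19 and 0.22.

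FOSL1 and FOSL2 encode FOS proteins without the strong activation domain of FOS, and both fell. FOSL1 had 85, 32 and 42 T > C reads with DMSO, with replicate 1 standing highest, and 15, 11 and 18 with C646. It went from 6.35 ± 2.34 to 1.71 ± 0.325 CPM (SD, n = 3), with a log2 fold change of −1.90 ± 0.39 SE (adjusted p = 0.000154, edgeR). Scaled on the T > C reads, FOSL1 was at −1.09 to −1.07 and lost its call (adjusted p = 0.0306 to 0.0512 in edgeR and DESeq2), whereas FOSL2 kept it. FOSL2 had 166, 112 and 140 T > C reads with DMSO and 45, 24 and 21 with C646. Its level went from 17.3 ± 1.67 to 3.66 ± 2.03 CPM (SD, n = 3), with a log2 fold change of −2.27 ± 0.29 SE (adjusted p = 1.87e-07, edgeR). Neither gene had groups that overlapped, as in 55.8% of the tested genes, where all C646 values were the lower ones.

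The total mRNA of these FOS genes fell within the 2 h of treatment too. FOSL1 reads numbered 174, 69 and 98 with DMSO and 48, 35 and 32 with C646 (log2 fold change −1.60 ± 0.31 SE, adjusted p = 0.00188, edgeR). FOSL2 reads numbered 319, 236 and 308 with DMSO and 159, 129 and 122 with C646 (log2 fold change −1.15 ± 0.21 SE, adjusted p = 0.00116, edgeR). With JUNB, these were the 3 AP-1 genes whose total mRNA was called lower. Of 10851 genes tested in all reads, 1.88% were called lower and 5.89% higher, and 3 of the 10 AP-1 genes were lower and 1 higher. The median log2 fold change in all reads was −0.0030 over all tested genes and −0.65 over the 10 AP-1 genes. The FOSL1 call was lost without DMSO replicate 1 (−1.32) or C646 replicate 2 (−1.55), and FOSL2 without C646 replicate 3 (−0.96).

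FOSB, which responds to stimuli much as FOS does, was near the limit of detection, with 8, 6 and 4 T > C reads with DMSO and 1, 6 and 0 with C646. C646 replicate 2 was within the DMSO range and the other C646 libraries below it. Without the filter, the log2 fold change of new FOSB was −1.35 ± 1.09 SE (adjusted p = 0.360, edgeR). All reads of FOSB numbered 13, 6 and 8 with DMSO and 21, 13 and 15 with C646, the opposite direction, and did not pass the test (log2 fold change 0.80 ± 0.51 SE, adjusted p = 0.254, edgeR).

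BATF3, the partner of JUN proteins known from dendritic cells, had 7, 2 and 3 T > C reads with DMSO and 0, 0 and 0 with C646. With 3 counts per library taken as the floor, new BATF3 was at least 1.34-fold lower with C646. This bound rests on DMSO replicate 1: without it, the DMSO mean of 0.341 CPM is below the floor of 0.354 CPM, and no bound is left. With 0 T > C reads among the 78 reads of the C646 libraries, its T > C share could still be up to 3.85%, counting error only. Total BATF3 numbered 51, 43 and 34 reads with DMSO and 18, 26 and 34 with C646. When scaled, each C646 library was below each DMSO library, as in 23.1% of the genes tested in all reads, and the difference did not pass the test (log2 fold change −0.82 ± 0.34 SE, adjusted p = 0.0758, edgeR).

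Of the small MAF genes, MAFF fell and MAFG did not pass the test. New MAFF, the stress-responsive one, had 37, 20 and 24 T > C reads with DMSO and 1, 2 and 6 with C646. The groups did not overlap, as in 55.8% of the tested genes. It fell from 3.30 ± 0.567 to 0.324 ± 0.241 CPM (SD, n = 3), 9.33-fold (log2 fold change −3.22 ± 0.61 SE, adjusted p = 6.08e-05, edgeR). The C646 mean is below the level of 3 reads per library (0.354 CPM), so the size of the fold is uncertain: the pooled 81 and 9 T > C reads gave 9.62-fold, with an exact 95% interval of 4.83 to 21.8 that covers counting error only. Leaving out each library in turn gave −4.01 to −2.89, the lowest without C646 replicate 3, which held 6 T > C reads of MAFF, compared to 1 and 2 in the other C646 libraries. Total MAFF, at 55, 26 and 44 reads with DMSO and 29, 17 and 35 with C646, did not pass the test (log2 fold change −0.71 ± 0.37 SE, adjusted p = 0.156, edgeR).

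MAFG, the more abundant small MAF gene, had 630, 449 and 391 T > C reads with DMSO and 312, 386 and 596 with C646. Scaled, these were 60.4 ± 7.05 and 49.2 ± 9.09 CPM (SD, n = 3), with overlapping groups and a log2 fold change of −0.29 ± 0.16 SE (adjusted p = 0.128, edgeR). Scaled on the T > C reads, the direction was reversed, to between 0.51 and 0.54. Total MAFG was 132 ± 7.50 CPM with DMSO and 184 ± 19.9 CPM with C646 (SD, n = 3), with every C646 library above every DMSO library, as in 24.5% of the tested genes. This log2 fold change of 0.47 ± 0.13 SE (adjusted p = 0.0148, edgeR) met neither cutoff.

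**Figure D2:**
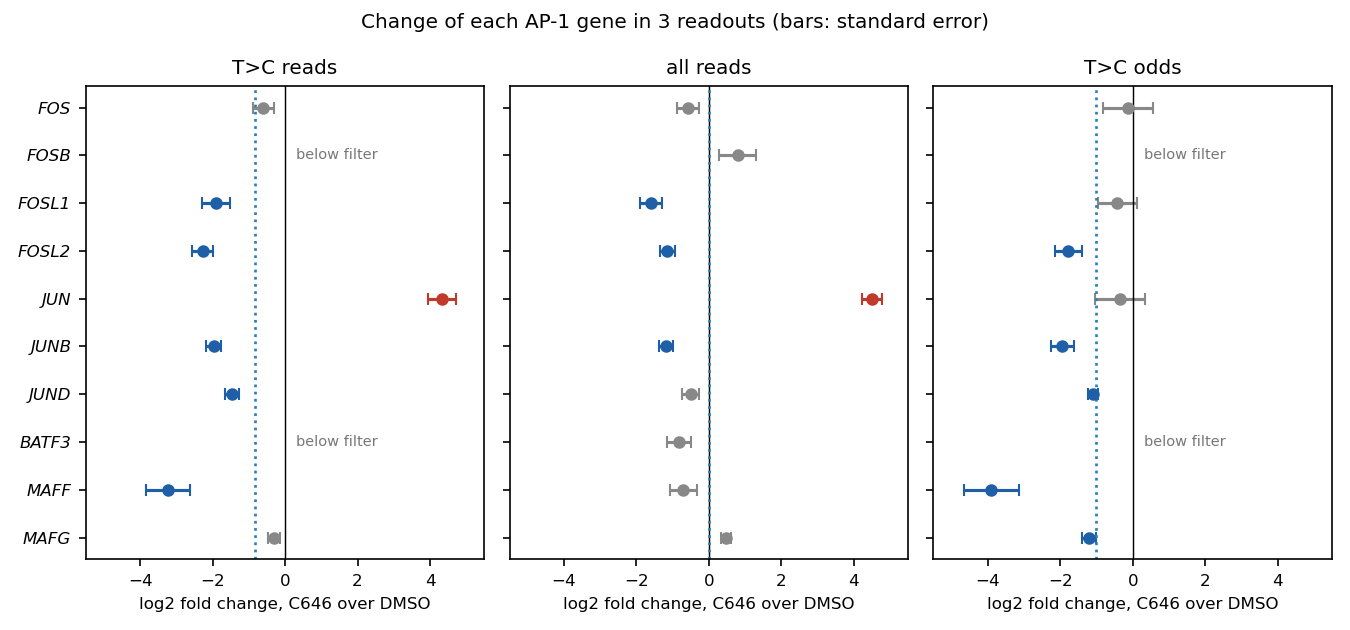
Log2 fold change of C646 over DMSO (x axis) for each AP-1 gene in T > C reads, in all reads and in the odds that a read carries a conversion, with the standard error as bars. Blue marks genes called lower, red higher and grey neither, the dotted line is the median of all tested genes, and FOSB and BATF3 had too few T > C reads. JUN stands at 4.33 and 4.51 in the first panels and at −0.35 in the odds, whereas MAFF is at −3.22 in T > C reads, −0.71 in all reads and −3.91 in the odds.

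The T > C share of a gene's reads needs no scaling between libraries and reflects how much of its mRNA was made within the labelling. It is not that fraction itself, since a new read without a converted T counts as old. It also depends on the T bases covered, and T content differs between 3′ UTRs (34.2% for FOS and 20.8% for FOSL1). The share depends on incorporation of the label as well, which was not tested. Over 8850 genes with 50 or more reads in the average library, the median share was 11.7% with DMSO and 6.34% with C646. Most AP-1 genes were far above it with DMSO. FOS was highest at 86.3% ± 4.25, above 99.9% of these genes, followed by JUNB at 74.5% ± 1.51, above 99.5% (SD, n = 3). MAFF had 66.2% ± 11.2, FOSL2 48.3% ± 3.37, FOSL1 46.0% ± 3.01 and MAFG 45.5% ± 3.14. JUND, at 15.4% ± 1.90, was above 62.2% of the genes only, and BATF3 was at 9.07% ± 4.54.

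With C646, the share of FOS was 86.0% ± 9.75 (SD, n = 3), and the groups overlapped (two-sided exact permutation test, p = 1.0). Replicate 2 stood apart at 97.2% on 36 reads, and without it the ratio of C646 to DMSO was 0.931 in place of 0.996. The share of conversions per 100 covered T bases, which can still move where nearly every read is converted, was 8.76 ± 0.184 for FOS with DMSO and 7.32 ± 1.21 with C646 (SD, n = 3, exact permutation test, p = 0.2). The shares of JUNB went to 43.2% ± 1.64, of MAFF to 10.8% ± 6.90, of FOSL2 to 21.4% ± 6.04, of MAFG to 26.6% ± 2.07 and of JUND to 7.80% ± 0.921, each with no overlap between groups and an exact permutation p = 0.1, the smallest that 3 libraries against 3 allow. Shares with C646 were likewise all below those with DMSO in 60.6% of the genes with 50 or more reads in the average library, and all above in 1.96%. The share of FOSL1 was 39.6% ± 14.4 with C646 and overlapped that with DMSO (exact permutation test, p = 0.4). FOSB went from 70.5% ± 26.2 to 17.0% ± 25.4 (SD, n = 3) on 6 to 21 reads per library, with no overlap and p = 0.1 (exact permutation test). Its C646 libraries were at 4.76%, 46.2% and 0%, and without replicate 2 the ratio of C646 to DMSO went from 0.241 to 0.0338.

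**Figure D3:**
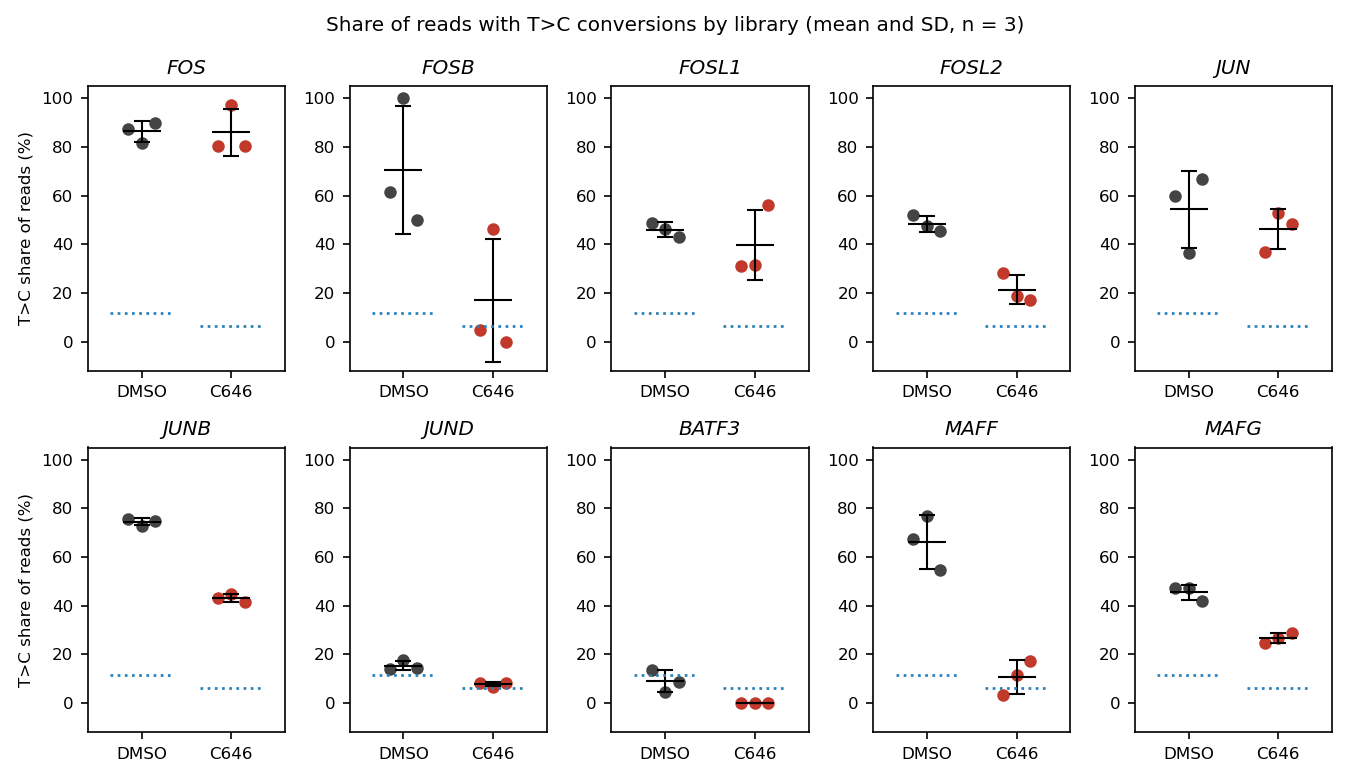
T > C share of the reads of each AP-1 gene (y axis, percent) in the 3 DMSO (grey) and 3 C646 (red) libraries, with the mean and SD. The dotted lines are the medians over 8850 genes, 11.7% with DMSO and 6.34% with C646. FOS is at 81.6% to 89.9% with DMSO and at 80.4%, 97.2% and 80.2% with C646, JUNB goes from 74.5% to 43.2% and MAFF from 66.2% to 10.8%.

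In a fit over all genes of converted against unconverted reads, the odds that a read carries a conversion fell for 5 of the 8 genes tested and rose for 0 in edgeR, also at an unadjusted p under 0.05 (0 of 8). Of all tested genes, 38.3% were called lower and 0.790% higher in this readout, with a median log2 change in odds of −1.004, and the median of the 8 AP-1 genes was −1.15. The odds of MAFF fell (log2 fold change −3.91 ± 0.76 SE, adjusted p = 0.000159, edgeR), and the value was −4.63 without C646 replicate 3. JUNB followed at −1.94 ± 0.31 SE (adjusted p = 1.88e-05, edgeR) and FOSL2 at −1.77 ± 0.37 SE (adjusted p = 0.000310, edgeR). MAFG, with no call in T > C reads, was at −1.20 ± 0.19 SE (adjusted p = 1.34e-05, edgeR), and JUND at −1.10 ± 0.13 SE (adjusted p = 2.92e-07, edgeR). The call of JUND was lost without DMSO replicate 2 (−0.98) or C646 replicate 2 (−0.99), where it was just short of the fold cutoff. The odds of FOS, FOSL1 and JUN did not pass, at −0.13, −0.43 and −0.35, with adjusted p of 0.870, 0.491 and 0.663 (edgeR), and JUN was at −0.95 without DMSO replicate 2.

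Further basic leucine zipper genes, called partner genes here, were taken as a list of 22, of which 14 had enough T > C reads. Not each of them is an established partner of AP-1 proteins. New transcripts of 6 fell and of 0 rose in edgeR (2 of those higher, ATF3 and NFE2L2, had an unadjusted p under 0.05, and DESeq2 called 0), with a median log2 fold change of −1.05 compared to −0.83 over all tested genes. The background was 33.0% lower and 2.97% higher. NFE2, MAFK and ATF7 passed the filter on low counts only through the DMSO libraries, as MAFF did. Their folds thus rest on few T > C reads with C646. NFE2, which pairs with small MAF proteins in blood cells, fell from 11.3 ± 0.341 to 0.538 ± 0.0531 CPM (SD, n = 3, log2 fold change −4.35 ± 0.38 SE, adjusted p = 1.40e-10, edgeR). MAFK, the remaining small MAF gene, fell from 13.4 ± 3.37 to 0.964 ± 0.488 CPM (SD, n = 3, log2 fold change −3.80 ± 0.37 SE, adjusted p = 1.11e-09, edgeR). ATF7, a partner of JUN, was at −2.79, and NFE2L1, another partner of small MAF proteins, at −2.11.

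Of 31 genes upstream of AP-1 (MAP kinase cascades, SRF with its cofactors, and ubiquitin ligases of JUN), 20 could be tested in T > C reads, and 4 fell and 0 rose in edgeR, with 0 higher at an unadjusted p under 0.05 and 0 in DESeq2, and a median of −1.04. Over all tested genes, 33.0% were lower, 2.97% higher and the median −0.83. MRTFA passed the filter only through DMSO. The SRF cofactor MRTFA fell by 2.50 on the log2 scale, and SRF, which drives FOS and other immediate early genes, fell from 34.3 ± 10.7 to 9.50 ± 1.24 CPM (SD, n = 3, log2 fold change −1.86 ± 0.22 SE, adjusted p = 5.42e-08, edgeR). FBXW7, a ubiquitin ligase subunit that targets JUN protein, was at −2.21, and MAP3K1, a kinase of the JNK cascade, at −1.05, a call lost without DMSO replicate 2 (−0.80). None of the JNK genes was called in T > C reads: MAPK8 was at −1.35 (adjusted p = 0.0428, edgeR), and MAPK9 and MAPK10 had too few reads.

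Known AP-1 target genes formed a list of 20, of which 11 could be tested, and 5 fell and 1 rose, with a median of −1.05, beside 33.0% lower, 2.97% higher and a median of −0.83 over all tested genes. Those that fell included the chemokine gene CCL2 (−2.21), the adhesion receptor gene CD44 (−2.15), EZR (−1.51), which links actin to the membrane, and PLAU (−1.16), the urokinase gene. CCL2 and CD44 passed the filter only through DMSO, and the call of PLAU was lost without DMSO replicate 3 (−0.87) or C646 replicate 1 (−0.996). The 1 that rose was CXCL8, the interleukin-8 gene, from 2.80 ± 0.441 to 20.1 ± 1.03 CPM (SD, n = 3, log2 fold change 2.83 ± 0.25 SE, adjusted p = 2.36e-10, edgeR). VEGFA, a growth factor gene named here after its values were seen, was just short of the fold cutoff (log2 fold change 0.99 ± 0.25 SE, adjusted p = 0.00132, edgeR), and 2 targets were called higher without DMSO replicate 1, without C646 replicate 1 or with the replicate block. Scaled on the T > C reads, which moved the median of all genes by 0.80 to 0.83, the 5 calls of lower targets became 0 (with TMM in edgeR, 3 were lower at an unadjusted p under 0.05). The matrix metalloproteinase genes MMP1, MMP3 and MMP9 had 0 T > C reads.

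**Figure D4:**
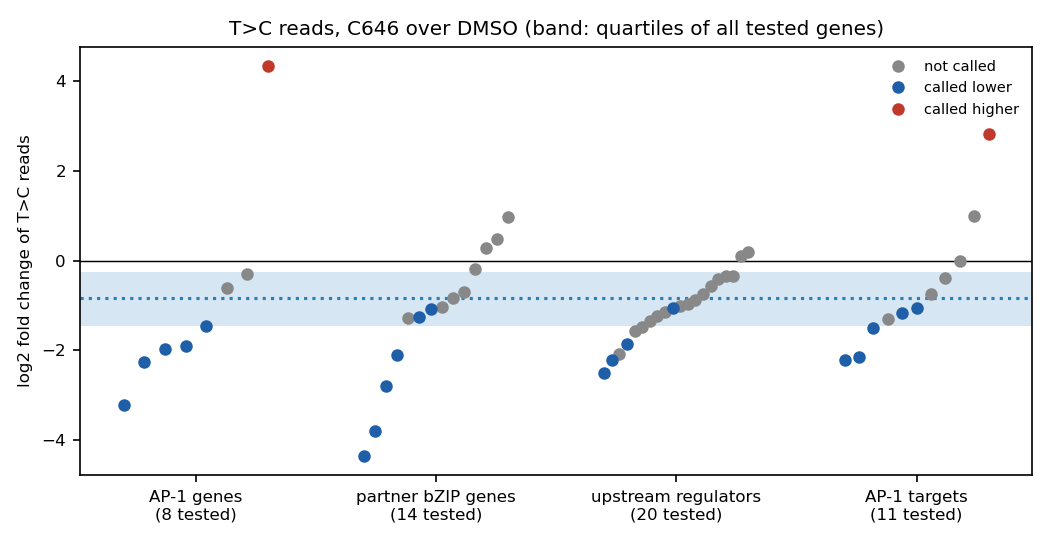
Log2 fold change of T > C reads (y axis) of the tested AP-1 genes, their partner genes, their upstream regulators and AP-1 targets, each point a gene ordered by value. The band spans the quartiles of all tested genes (−1.46 to −0.25) and the dotted line is their median. JUN at 4.33 and CXCL8 at 2.83 are the genes called higher, and NFE2, which passed the filter only through DMSO, is at −4.35.

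The genes with T > C reads most like those of JUN were found by the Euclidean distance over the 6 libraries between log2 values centred on DMSO. They were sought among 2843 genes with 50 or more T > C reads in the average library, which JUN reached only through C646. With this centring, the distance mostly reflects the size of the change with C646. The nearest were DNAJB4 (distance 0.458), HSP90AA1 (0.517) and IER5 (0.633), with log2 fold changes of 3.91, 3.44 and 3.65. In all reads, these genes were at 3.86, 1.21 and 4.05. DNAJB4 had 21, 19 and 20 T > C reads with DMSO and 274, 336 and 360 with C646. Among the nearest to FOS were HDGF (0.302) and DPAGT1 (0.326), with log2 fold changes of −0.68 and −0.49.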

How the data were processed

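SLAM-seq libraries (QuantSeq 3′ end kit) of 3 DMSO and 3 C646 samples were used, grouped by their labels. The authors ran SLAM-Dunk v0.4.1 on GRCh38 (CASAVA 1.9 is listed in the submitters' processing notes) and deposited 1 table per library with 58136 3′ UTR entries by Entrez identifier, 25310 of 25420 genes being matched to a symbol. The deposited tables hold raw counts of all reads, T > C reads, conversions and multimapped reads, without normalization. The deposited signal is the read coverage over T bases, and the deposited CPM was scaled by the authors' software to all filtered reads of the library. The deposited conversion rate, a fraction of covered T bases, was not used and was recomputed from the counts. Since C646 replicate 3 lists 0 T bases for every entry, this number was taken from the other tables, where it equalled that of the genome in 100% of 7724 entries looked up. Of 6080 entries with 1 T > C read, 54.1% held exactly 1 conversion, so the deposited T > C reads include reads with 1 conversion, whereas the authors' own test used reads with more. Errors and polymorphisms can give such reads, and no unlabelled library was analysed here.

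Counts were summed by gene and tested with edgeR 4.0.16 (filterByExpr, glmQLFit, glmQLFTest, Benjamini-Hochberg adjustment over all tested genes) in R 4.3.3. T > C reads were scaled by the TMM-scaled total reads on 3′ UTRs, and all reads by TMM. The odds model had terms for library, T > C and the treatment effect on T > C. Each SE was taken as |log2 fold change| over the root of F. Scripts were tested on simulated data. DESeq2 1.42.0 served as an alternative. Conversions per covered T base were an alternative to the T > C share. Likeness used log2(CPM + 0.5). Summaries used Python 3.11.15, pandas 2.3.3, numpy 2.4.6, scipy 1.17.1 and matplotlib 3.10.9. Intervals and floors (3 counts) cover counting error only, since PCR copies of a molecule are counted separately. Named genes are the 10 members, at most 4 called genes of each list in each direction and the 3 nearest to JUN and to FOS. Of the genes so chosen, 1 is left out here. The members and lists were chosen with earlier results of these data known.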

Additional observations from a re-analysis of the deposited data

How the results depend on the processing

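T > C reads scaled on themselves (TMM, DESeq2 size factors in edgeR, or DESeq2) gave 3 AP-1 genes called lower in place of 5. JUNB (−1.14, −1.17 and −1.17), FOSL2 (−1.43, −1.45 and −1.44) and MAFF (−2.42, −2.44 and −2.49) kept their calls at smaller folds. FOSL1 (−1.07, −1.09 and −1.09) and JUND (−0.62, −0.64 and −0.64) lost their calls, FOS was reversed to 0.22, 0.19 and 0.19, and MAFG to 0.54, 0.51 and 0.51. These scalings put the median gene near 0 by construction. Testing only genes with 50 or more T > C reads in the average library also left 3, with fewer genes tested. In all reads, scaling by all filtered reads, added after seeing the data, left 1 called lower (FOSL2 −0.95, JUNB −0.98, just under the fold cutoff), and an adjusted p of 0.05 with no minimum fold gave 2 called higher, MAFG the second. The small odds change of FOS was reversed without DMSO replicate 3 (0.093), C646 replicate 1 (0.11) or C646 replicate 3 (0.27). The cause was not tested for any of these unless stated.

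Leaving out each library in turn, the AP-1 genes called lower numbered 5 to 5 in T > C reads, 2 to 3 in all reads and 4 to 5 in odds, and those called higher 1 to 1, 1 to 1 and 0 to 0. For the partner genes, the count called lower was 3 with the minimum of 50 reads, and the count called higher was 2 under each scaling on T > C reads, 1 by all filtered reads and 1 at an adjusted p of 0.05 with no minimum fold. For upstream genes, 12 were lower at an adjusted p of 0.05 with no minimum fold, and 1 was higher with TMM on T > C reads, as in DESeq2 scaled on T > C reads. For targets, the count called lower was 0 under each scaling on T > C reads and 3 with the minimum of 50 reads or by all filtered reads. The count of targets called higher was 2 under each scaling on T > C reads, by all filtered reads, with the replicate block and at an adjusted p of 0.05 with no minimum fold, and 1 to 2 with a library left out. The counts called lower with a library left out were 5 to 7 for partner genes, 3 to 6 for upstream genes and 4 to 5 for targets. With the replicate number as a block, the AP-1 genes called lower were 5 in T > C reads, 3 in all reads and 5 in odds, with 1, 1 and 0 higher, as without it, while partner genes called lower went from 6 to 7 and upstream genes from 4 to 6. The numbers may not pair the samples: deviations of same-numbered libraries correlated by 0.030 to 0.065 in T > C reads and −0.0014 to 0.23 in all reads. Of the alternatives for single AP-1 genes, 343 kept direction and side of the cutoffs, 14 lost a call, 1 gained one and 9 were reversed. The bound of BATF3 and the named list genes without each library were added after seeing the data. Depth limits FOSB, BATF3, JUN with DMSO and MAFF with C646, which had few T > C reads. Conversions per covered T base, tried in place of the T > C share, gave C646 over DMSO ratios further from 1 for FOS (0.836), JUN (0.545), JUNB (0.433), MAFG (0.501), FOSB (0.125), JUND (0.454) and FOSL2 (0.416), and closer to 1 for MAFF (0.195) and FOSL1 (0.878).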

Other observations

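In all reads, some genes of the lists went higher, and they were named after their values were seen. Called higher were 1 of the 14 partner genes tested in all reads, 2 of 27 upstream genes and 3 of 14 targets, and lower 1, 1 and 0, beside 5.89% higher and 1.88% lower over all tested genes. ATF3, a partner of JUN proteins induced by stress, was called higher in total mRNA (log2 fold change 1.41 ± 0.27 SE, adjusted p = 0.00147, edgeR), with 34, 26 and 15 T > C reads with DMSO and 40, 51 and 67 with C646. Its new transcripts did not pass the cutoffs (0.98 ± 0.34 SE, adjusted p = 0.0164, edgeR). The JNK gene MAPK9 (1.32) and the ERK pathway kinase gene MAP2K1 (1.34) were called higher in total mRNA. Among AP-1 targets, PLAUR (1.01), the urokinase receptor gene, and VEGFA (1.36), a growth factor gene, were called higher in total mRNA beside CXCL8 (2.99). In T > C reads, PLAUR was at −0.40, VEGFA at 0.99 and MAP2K1 at 0.093, without a call, and MAPK9 had too few reads. Of the partner genes, NFE2 was called lower in total mRNA (−1.98), and so was MRTFA (−1.05) of the upstream genes.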
